A study of Mus musculus with 6 samples.

Results

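The 10 epidermal keratins described here are Krt5, Krt14 and Krt15 of the basal layer, Krt1, Krt10, Krt2 and Krt77 of the suprabasal layers, and the stress keratins Krt6a, Krt16 and Krt17. They were taken by symbol, as the genes of the raw count table whose Ensembl identifier maps to these names. All 10 were found among the 55536 genes listed, and all 10 were among the 20622 genes that passed the filter on low counts and were tested. The study used RNA sequencing of basal epidermal cells to ask what loss of H3K9me3 methyltransferases does to transcription in the embryonic epidermis. Cells positive for Epcam and α6 integrin were sorted from the dorsal skin of E16.5 mouse embryos. Every embryo, in both groups, carried floxed Suv39h1 (Suv39h1 f/f), a deletion of Suv39h2 (Suv39h2-/-) and floxed Setdb1 (Setdb1 f/f), and every embryo received tamoxifen. The 3 triple knockout (TKO) samples were K14CreERT2+, so that tamoxifen activates a Cre recombinase driven by a keratin 14 promoter, and the 3 control (Ctrl) samples were K14CreERT2-. By these labels the controls are not wild type, since Suv39h2 is marked as deleted in them too. The study's supplement describes the litters used for bulk RNA sequencing as mosaic for the deletion. The labels name no separate animal or litter for each sample, so p-values measure the spread between these samples. Ribosomal RNA was depleted before library preparation. Depth, as the total count of a library, reached 102159175, 136515436 and 104422632 for Ctrl replicates 1, 2 and 3. It reached 116308383, 108957256 and 118413082 for TKO replicates 1, 2 and 3.

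Keratins form the intermediate filaments of epithelial cells, and a filament is built from a type II keratin paired with a type I keratin. Basal keratinocytes, which divide and sit on the basement membrane, make Krt5 with Krt14, and also the type I keratin Krt15. Cells that leave the basal layer and begin to differentiate switch to Krt1 with Krt10, later with Krt2, while Krt6a, Krt16 and Krt17 are induced in wounded or stressed epidermis, and Krt17 is also made in embryonic epidermis and hair follicles. In the GRCm39 build, the type I genes Krt10, Krt15, Krt14, Krt16 and Krt17 lie on chromosome 11 between positions 99276072 and 100151974. The type II genes Krt6a, Krt5, Krt2, Krt1 and Krt77 lie on chromosome 15 between positions 101598345 and 101778245. All 10 are protein-coding genes on the minus strand in the GENCODE vM39 annotation.

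Keratin genes arose by duplication, and reads from near-identical stretches can be divided between copies when they are counted. Of the 10, Krt6a has the largest share of repeated sequence, with 34.0% of all 100-base windows of its transcript found unchanged in another annotated gene, mostly Krt6b. Krt16 shares 23.2% of its windows, mostly with the predicted gene Gm11597. Krt14 shares 2.68%, with Krt16, and Krt5 shares 2.37%, with Krt6a. Krt15, Krt1, Krt10, Krt2, Krt77 and Krt17 share none. The first 120 coding bases of Krt6a, on GRCm39 at chr15:101602564-101602683 on the minus strand, and of Krt6b, at chr15:101588539-101588658 on the minus strand, show how close the copies are. Capitals mark the 2 bases that differ.

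Krt6a: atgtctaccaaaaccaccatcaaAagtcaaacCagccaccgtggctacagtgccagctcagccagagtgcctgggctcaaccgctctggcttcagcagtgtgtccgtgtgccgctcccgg

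Krt6b: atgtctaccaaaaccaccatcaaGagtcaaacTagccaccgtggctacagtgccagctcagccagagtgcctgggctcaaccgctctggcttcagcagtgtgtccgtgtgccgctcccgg

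The coding sequences have 1659 bases in Krt6a and 1662 in Krt6b. Compared position by position without alignment, 1608 positions are identical (96.8% of the longer sequence). The other 54 include the difference in length. Levels of Krt6a and Krt16 are therefore uncertain where counting could split reads between copies. Krt5, Krt6a and Krt10 also overlap predicted genes on the opposite strand (Gm49428 and Gm55161 for Krt5, Gm49428 and Gm55158 for Krt6a, Gm11940 for Krt10), and whether strand was used in counting is not given in the sources used here.

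Promoter sequences from RefSeq (GRCm38.p6) were found for 5 of the 10, namely Krt5, Krt14, Krt10, Krt2 and Krt77. The last 100 bases before the start are shown for Krt5, the most abundant keratin of these cells, and for Krt10 and Krt2, an abundant and a scarce suprabasal keratin. Capitals mark the letters TATAA, the core of a TATA box, where present. The Krt5 stretch lies at chr15:101712906-101713005, that of Krt10 at chr11:99389365-99389464 and that of Krt2 at chr15:101818170-101818269, all on the minus strand.

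Krt5: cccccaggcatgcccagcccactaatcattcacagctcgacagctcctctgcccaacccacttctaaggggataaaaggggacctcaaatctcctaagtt

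Krt10: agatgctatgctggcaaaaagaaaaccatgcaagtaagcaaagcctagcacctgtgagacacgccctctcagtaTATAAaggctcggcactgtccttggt

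Krt2: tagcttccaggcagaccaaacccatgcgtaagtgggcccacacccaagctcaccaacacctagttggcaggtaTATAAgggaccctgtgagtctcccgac

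The start is that of the promoter entry, which lies 8085 bases for Krt10, 787 for Krt2 and 1480 for Krt14 from the outermost start of the RefSeq gene, 1 base from it for Krt77, and at it for Krt5. Counted from the start of its entry, TATAA begins 26 bases before it in Krt10 and 27 bases before it in Krt2. It was found, on either strand, in the same window of 10.2% of all 32851 promoters. The AP-1 motif TGANTCA was in the window of none of the 5 keratin promoters and in 2.73% of all. The AP-2 motif GCCNNNGGC was in none of the 5 and in 6.78% of all. These matches describe letters only. Krt10 and Krt2, which share the TATAA letters, ranked 5 and 11271 in level per kilobase among the protein-coding genes of the Ctrl samples.

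The sorted cells held high levels of both basal and suprabasal keratins. Levels are given as CPM, the count scaled by the TMM-adjusted size of the library, or, to compare genes, as RPKM, which is CPM per kilobase of transcript. The 10 keratins took 4.48%, 4.21% and 3.94% of all annotated counts in Ctrl replicates 1, 2 and 3, and 3.25%, 2.95% and 3.12% in TKO replicates 1, 2 and 3. They supplied 99.8% of the counts of all 54 protein-coding keratin genes. Per kilobase, the order in Ctrl was Krt5 (4909 ± 1048 RPKM), Krt1 (4049 ± 61.1), Krt10 (4021 ± 415), Krt14 (3167 ± 581), Krt15 (1448 ± 194), Krt17 (236 ± 51.5), Krt77 (18.0 ± 6.66), Krt16 (11.5 ± 0.438), Krt6a (0.890 ± 0.576) and Krt2 (0.723 ± 0.407; SD, n = 3). The Ctrl samples of Krt5 and Krt1 overlapped, as did those of Krt1 and Krt10 and those of Krt6a and Krt2, and every other pair of neighbours was separate. Among 21571 protein-coding genes ranked per kilobase in Ctrl, Krt5 ranked 3, Krt1 ranked 4, Krt10 ranked 5, Krt14 ranked 6 and Krt15 ranked 15. In TKO, Krt10 and Krt1 changed places, the samples of neighbours from Krt5 to Krt14 all overlapped, and Krt15 ranked 50.

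**Figure D1:**
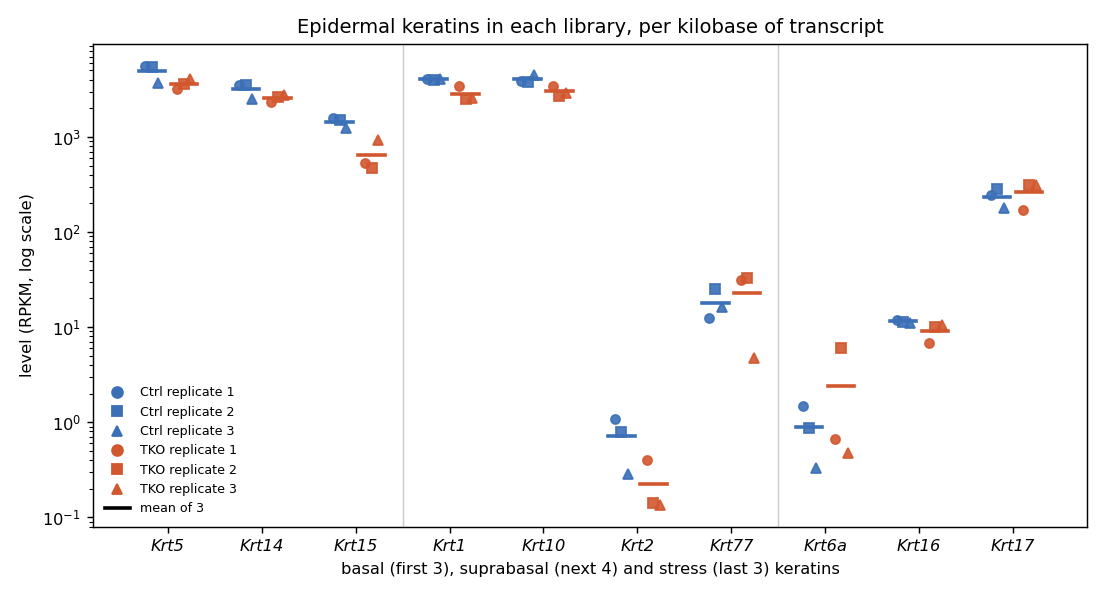
Level of each epidermal keratin in RPKM (vertical axis, log scale) in the 3 Ctrl (blue) and 3 TKO (orange) samples, with bars at the mean of 3. Krt15, Krt1, Krt10 and Krt16 have no TKO sample as high as any Ctrl sample, while Krt6a and Krt77 each have 1 TKO sample far from the other two.

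The label basal epithelial cells was checked against these markers. Krt5 and Krt14 were abundant in all 6 samples, and the sort markers Epcam (72.9 to 97.4 CPM) and Itga6 (462 to 583 CPM), which encodes α6 integrin, did not differ beyond their spread between groups (edgeR log2 fold changes 0.13 ± 0.137 and 0.03 ± 0.145, SE). Krt1 and Krt10, which mark suprabasal cells, had lower mean levels per kilobase than Krt5 in both groups, but higher ones than Krt14 (4049 and 4021 against 3167 RPKM in Ctrl, and 2841 and 3013 against 2577 RPKM in TKO). The samples therefore held transcripts of both layers, and in bulk samples fewer cells of a type and less RNA per cell cannot be told apart. The summed RPKM of suprabasal over basal keratins was 0.742, 0.739 and 1.16 in Ctrl replicates 1, 2 and 3, and 1.16, 0.774 and 0.703 in TKO replicates 1, 2 and 3. Ctrl replicate 3 and TKO replicate 1 thus stood apart from the other 4 samples, 1 in each group.

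The targeted genes were read in every sample. Setdb1 was at 125.5, 117.9 and 121.1 CPM in Ctrl and at 95.3, 62.3 and 74.9 CPM in TKO, with no overlap and an edgeR log2 fold change of -0.65 ± 0.161 (SE, adjusted p = 0.286, DESeq2 adjusted p = 0.0449). Suv39h1 was at 88.7, 78.5 and 84.0 CPM in Ctrl and at 75.6, 68.9 and 89.4 CPM in TKO (log2 fold change -0.10 ± 0.137). Suv39h2, labelled as deleted in both groups, was at 15.9, 17.1 and 15.6 CPM in Ctrl and at 18.9, 16.0 and 17.5 CPM in TKO (0.11 ± 0.149), so all 6 samples held counts of it. Counts over whole genes need not fall when only some exons are deleted, so these values check the labels in part.

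Comparing TKO with Ctrl, none of the 10 keratins passed the call of edgeR's quasi-likelihood test (Benjamini-Hochberg adjusted p under 0.05 and absolute log2 fold change above 1), against 0.131% of all genes tested. At an unadjusted p under 0.05, 4 of the 10 were lower in TKO (Krt15, Krt1, Krt10 and Krt2), where 2.02% of all tested genes were, and none was higher, where 4.06% were. DESeq2 called 1 of the 10, Krt15, as lower, against 0.102% of all genes called lower and 1.04% called in either direction. In all, 7 of the 10 log2 fold changes were negative, as for 48.1% of all tested genes, with a median of -0.37 over the 10 and 0.01 over all tested genes. The Ctrl and TKO samples did not overlap for 4 of the 10 (Krt15, Krt1, Krt10 and Krt16), all lower in TKO, as for 5.11% of all tested genes. The 10 keratins together reached 37941 ± 2814 CPM in the Ctrl samples against 27635 ± 1368 CPM in the TKO samples (SD, n = 3).

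**Figure D2:**
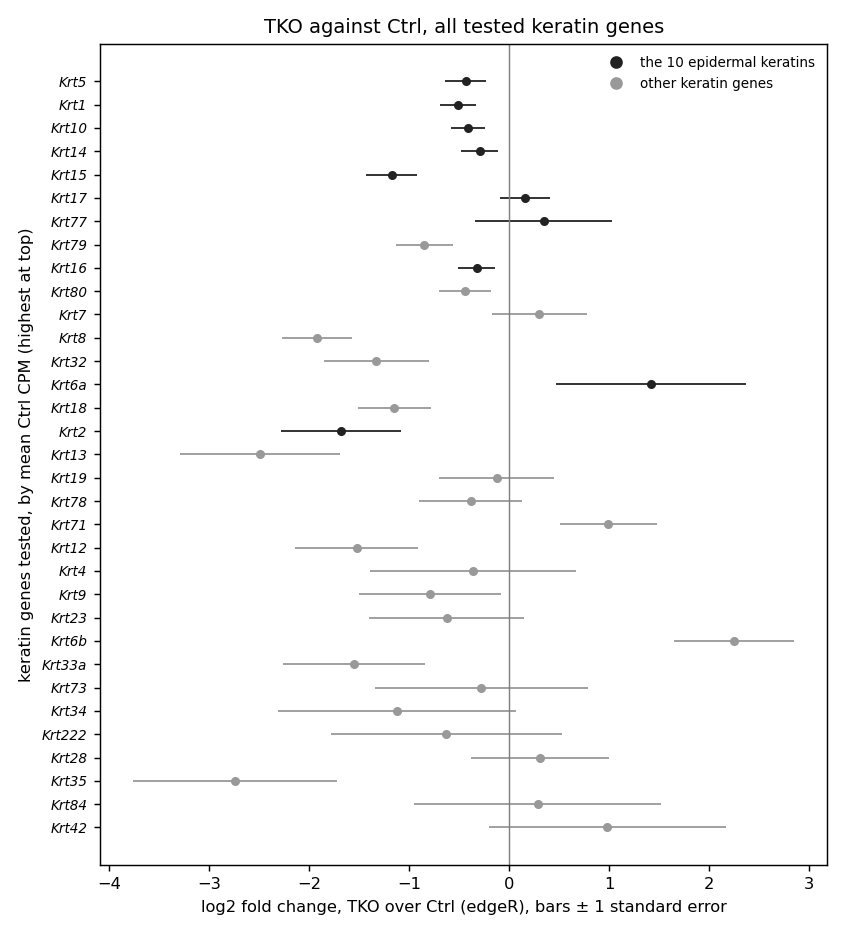
edgeR log2 fold change of TKO over Ctrl (horizontal axis, with bars of ± 1 SE) for the 33 keratin genes tested, ordered by mean Ctrl CPM. The 10 epidermal keratins (black) run from -1.68 for Krt2 to 1.42 for Krt6a, and the abundant ones lie between -1.18 (Krt15) and 0.16 (Krt17).

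Krt15 showed the clearest difference among the basal keratins, while Krt5 and Krt14 overlapped between groups. Krt15, a type I keratin kept in basal and hair follicle stem cells, was at 2716, 2579 and 2089 CPM in Ctrl and at 901, 792 and 1573 CPM in TKO. Every TKO sample lay below every Ctrl sample, with TKO replicate 3 nearest to Ctrl. The mean in TKO was 44.2% of that in Ctrl. The edgeR log2 fold change was -1.18 ± 0.256 (SE, adjusted p = 0.185), and DESeq2's adjusted p was 0.00066. Without TKO replicate 3, edgeR gave -1.54 with an adjusted p of 0.0160. With every sample kept and no low-count filter, edgeR gave -1.21 with an adjusted p of 1.06e-10. The edgeR call thus turns on TKO replicate 3 and on the filter.

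Krt5, the type II partner of basal filaments, was at 12318, 12051 and 8179 CPM in Ctrl and at 6994, 8037 and 9022 CPM in TKO. Ctrl replicates 1 and 2 were high, and Ctrl replicate 3 lay within the TKO range. Its log2 fold change was -0.44 ± 0.202 (edgeR, SE, adjusted p = 0.854). Krt14, the main type I partner of Krt5 and the gene whose promoter drives Cre in the TKO samples, was at 6336, 6370 and 4527 CPM in Ctrl and at 4203, 4794 and 5028 CPM in TKO. As for Krt5, Ctrl replicate 3 lay inside the TKO range. The log2 fold change was -0.30 ± 0.183 (edgeR, SE, adjusted p = 0.9998).

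The major suprabasal pair was lower in TKO by a similar amount for both partners, without passing the call. Krt1 was at 9973, 9778 and 10073 CPM in Ctrl and at 8516, 6100 and 6305 CPM in TKO. The Ctrl samples varied by 1.51% of their mean (coefficient of variation) and all TKO samples lay below them, TKO replicate 1 being the nearest. The edgeR log2 fold change was -0.51 ± 0.178 (SE, adjusted p = 0.658). Krt10, its type I partner, was at 8073, 7868 and 9475 CPM in Ctrl and at 7258, 5694 and 6094 CPM in TKO. The groups did not overlap, Ctrl replicate 3 was the highest and TKO replicate 1 was again the TKO sample nearest to Ctrl. Its log2 fold change was -0.42 ± 0.170 (edgeR, SE, adjusted p = 0.762). DESeq2 gave adjusted p-values of 0.157 for Krt1 and 0.345 for Krt10.

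The other suprabasal keratins were scarce. Krt2, a type II keratin of the upper spinous and granular layers, was at 2.86, 2.06 and 0.751 CPM in Ctrl (283, 266 and 81 counts) and at 1.04, 0.371 and 0.354 CPM in TKO (122, 41 and 43 counts). TKO replicate 1 lay above Ctrl replicate 3, so the groups overlapped. The log2 fold change was -1.68 ± 0.603 (edgeR, SE, adjusted p = 0.665), and it ranged from -2.39 without TKO replicate 1 to -1.26 without Ctrl replicate 1. Krt77, a type II keratin also known as keratin 1b, was at 38.2, 77.3 and 48.8 CPM in Ctrl and at 95.3, 98.7 and 14.4 CPM in TKO. The TKO samples lay on both sides of the Ctrl range, with TKO replicate 3 the lowest of all 6. Its log2 fold change was 0.34 ± 0.685 (edgeR, SE, adjusted p = 0.9998), and it ranged from 0.0019 without TKO replicate 2 to 0.82 without TKO replicate 3.

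No stress keratin was called, and the level of Krt6a turned on a single sample. Krt6a was at 3.37, 1.96 and 0.751 CPM in Ctrl and at 1.50, 13.7 and 1.07 CPM in TKO. Only TKO replicate 2 lay above the Ctrl range, and the other two TKO samples were inside it. The edgeR log2 fold change was 1.42 ± 0.955 (SE, adjusted p = 0.9998) and became -0.66 without TKO replicate 2. It was 0.61 with the sex letter of the library names as a factor, where TKO replicate 2 and Ctrl replicate 1 carry the letter F. Krt16, a type I partner of Krt6a, was at 19.5, 18.6 and 18.1 CPM in Ctrl and at 11.1, 16.3 and 17.3 CPM in TKO. All TKO samples were lower, by a margin of less than 1 CPM for TKO replicate 3, and the log2 fold change was -0.33 ± 0.189 (edgeR, SE, adjusted p = 0.979). Krt17, the abundant stress keratin of these cells, was at 410, 473 and 302 CPM in Ctrl and at 287, 518 and 516 CPM in TKO. The groups overlapped, with TKO replicates 2 and 3 highest and TKO replicate 1 lowest, and the log2 fold change was 0.16 ± 0.246 (edgeR, SE, adjusted p = 0.9998).

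Ratios within a library need no scaling between libraries, so 13 pairs of keratins were compared as ratios of levels per kilobase. With 3 samples against 3, the exact two-sided permutation test cannot give a p under 0.1, and after adjustment over the 13 pairs every p was 0.433 or more. The type II to type I ratio of the suprabasal pair, Krt1/Krt10, stayed near 1, at 1.06, 1.07 and 0.912 in Ctrl and 1.01, 0.919 and 0.888 in TKO. Its groups overlapped (log2 difference -0.11 ± 0.0914, SE, exact permutation p = 0.3). Krt5/Krt14 was 1.60, 1.55 and 1.48 in Ctrl and 1.37, 1.38 and 1.47 in TKO. All TKO ratios were lower, by a log2 difference of -0.14 ± 0.0464 (SE, exact permutation p = 0.1).

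Krt15 was low in TKO also when set against the other basal keratins. Krt15/Krt14 was 0.457, 0.432 and 0.492 in Ctrl and 0.229, 0.176 and 0.334 in TKO, with no overlap and a log2 difference of -0.95 ± 0.273 (SE, exact permutation p = 0.1). Krt5/Krt15 was 3.49, 3.59 and 3.01 in Ctrl and 5.97, 7.81 and 4.41 in TKO, again with no overlap (log2 difference 0.82 ± 0.251, SE, exact permutation p = 0.1). These ratios share Krt15, so they are not separate evidence. Both are largest in their distance from Ctrl in TKO replicate 2 and smallest in TKO replicate 3.

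**Figure D3:**
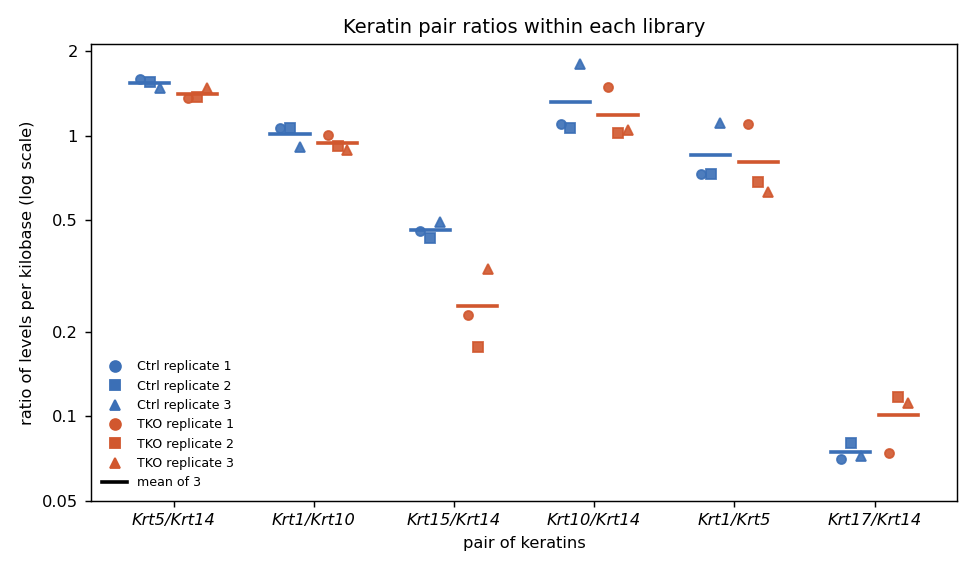
Ratios of keratin levels per kilobase in each sample (vertical axis, log scale) for 6 of the 13 pairs, with Ctrl in blue, TKO in orange and bars at the mean of 3. Only Krt5/Krt14 and Krt15/Krt14 separate the groups here, and Krt10/Krt14 and Krt1/Krt5 are high in Ctrl replicate 3 and TKO replicate 1.

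The ratios of suprabasal to basal keratins overlapped between groups. Krt10/Krt14 was 1.10, 1.06 and 1.80 in Ctrl and 1.49, 1.02 and 1.04 in TKO (log2 difference -0.14 ± 0.302, SE, exact permutation p = 0.5). Krt1/Krt5 was 0.729, 0.730 and 1.11 in Ctrl and 1.10, 0.683 and 0.629 in TKO (log2 difference -0.11 ± 0.321, SE, exact permutation p = 0.5). In both, Ctrl replicate 3 and TKO replicate 1 were the high samples, and the sign of the difference changed without Ctrl replicate 3. Of the stress keratins, Krt17/Krt14 was 0.0702, 0.0805 and 0.0724 in Ctrl and 0.0741, 0.117 and 0.111 in TKO. TKO replicates 2 and 3 were above all Ctrl samples and TKO replicate 1 was among them (log2 difference 0.41 ± 0.218, SE, exact permutation p = 0.2). The summed RPKM of the stress keratins over the basal keratins was 0.0242, 0.0281 and 0.0259 in Ctrl and 0.0298, 0.0483 and 0.0411 in TKO. Every TKO sample was above every Ctrl sample, though TKO replicate 1 only narrowly, and Krt17 supplied most of the stress sum. The remaining 6 pairs, each with Krt2, Krt77, Krt6a or Krt16, overlapped too, with exact permutation p from 0.2 to 0.9.

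The correlation of members across the 6 samples is given as a description. Krt5 and Krt14 had a Pearson correlation of 0.991 (Spearman 0.886), and Krt1 and Krt10 one of 0.947 (Spearman 1). Krt10 and Krt14, from the different layers, had 0.161, and Krt10 and Krt17 had -0.67. Krt15 correlated with both Krt5 (0.827) and Krt1 (0.705), and Krt2 did too (0.760 and 0.783). All are over the same 6 libraries, which share the group difference. Of 9037 protein-coding genes with a mean of at least 10 CPM, Krt5 was the most like Krt14, followed by Senp3 (0.987), Cox14 (0.984), Cib1 (0.984) and Rps15 (0.980). The genes most like Krt10 were Ddx17 (0.982), Fbxw2 (0.976), Clip4 (0.968), Slc31a2 (0.963) and Pgap3 (0.955). For Krt6a they were Obsl1 (0.970), H2aj (0.960), Ralb (0.960), Cish (0.959) and Tead4 (0.952), all highest in TKO replicate 2. With any library left out, at most 2 of each 5 names stayed in the list.

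The remaining 44 protein-coding keratin genes were low or absent, and the simple keratins Krt8 and Krt18 were among those lower in TKO. Of the 44, 23 were tested, 30 stayed under 1 CPM in every sample and Krt40 had no count in any. Of the 23, 7 were lower at an unadjusted p under 0.05 (Krt8, Krt18, Krt13, Krt79, Krt32, Krt12 and Krt35) and 1 was higher (Krt6b), beside 2.02% and 4.06% of all tested genes, with a median log2 fold change of -0.63. edgeR called none, beside 0.131% of all tested genes, and DESeq2 called Krt8 lower and Krt6b higher, beside 1.04% of all genes in either direction and 0.102% lower.

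Krt8, the type II keratin of simple epithelia, periderm and Merkel cells, was at 3.61, 4.01 and 3.07 CPM in Ctrl and at 1.10, 0.625 and 1.08 CPM in TKO. The groups were well separated (edgeR log2 fold change -1.92 ± 0.353, SE, adjusted p = 0.113, DESeq2 adjusted p = 4.94e-06). Krt18, its type I partner, was at 1.83, 2.48 and 1.61 CPM in Ctrl and at 1.06, 0.761 and 0.847 CPM in TKO, also without overlap (-1.15 ± 0.364, adjusted p = 0.527). Krt19, another simple type I keratin, ranged from 0.464 to 1.50 CPM in Ctrl and from 0.419 to 1.51 CPM in TKO. Krt13, a keratin of mucosal epithelia, was at 2.27, 0.635 and 0.315 CPM in Ctrl and 0.0935, 0.136 and 0.337 CPM in TKO, with the highest value in Ctrl replicate 1 (log2 fold change -2.50 ± 0.801, edgeR, SE, adjusted p = 0.546). Krt79, the most abundant keratin outside the 10, was at 24.7, 23.3 and 18.1 CPM in Ctrl and 7.84, 10.5 and 18.3 CPM in TKO, so TKO replicate 3 was level with Ctrl replicate 3.

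Krt6b, the near copy of Krt6a, was at 0.394, 0.356 and 0.408 CPM in Ctrl and at 0.926, 3.70 and 0.888 CPM in TKO. Every TKO sample was higher, and TKO replicate 2 was the highest, as for Krt6a (edgeR log2 fold change 2.25 ± 0.602, SE, adjusted p = 0.342, DESeq2 adjusted p = 0.0165). How reads were divided between Krt6a and Krt6b was not tested.

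Merkel cell markers were read beside Krt8 and Krt18. Merkel cells are touch-sensing cells of the epidermis that make both keratins. Of the 10 genes in that list, which holds Krt8 and Krt18 themselves, 9 were tested, all 9 had a negative log2 fold change and 8 an unadjusted p under 0.05, where 2.02% of all tested genes were lower at that p. edgeR called none of them and DESeq2 called 3 as lower (Isl1, Krt8 and Pou4f3), where it called 0.102% of all genes lower. The summed level of the list was 23.2, 26.5 and 26.4 CPM in Ctrl and 9.92, 12.7 and 12.5 CPM in TKO, and Piezo2, a mechanically gated channel, was its most abundant gene. Atoh1, the regulator that specifies Merkel cells, was at 0.828, 1.29 and 1.58 CPM in Ctrl and at 0.145, 0.0453 and 0.477 CPM in TKO. No marker was at 0 in all samples, and their part in the Krt8 and Krt18 difference was not tested.

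**Figure D4:**
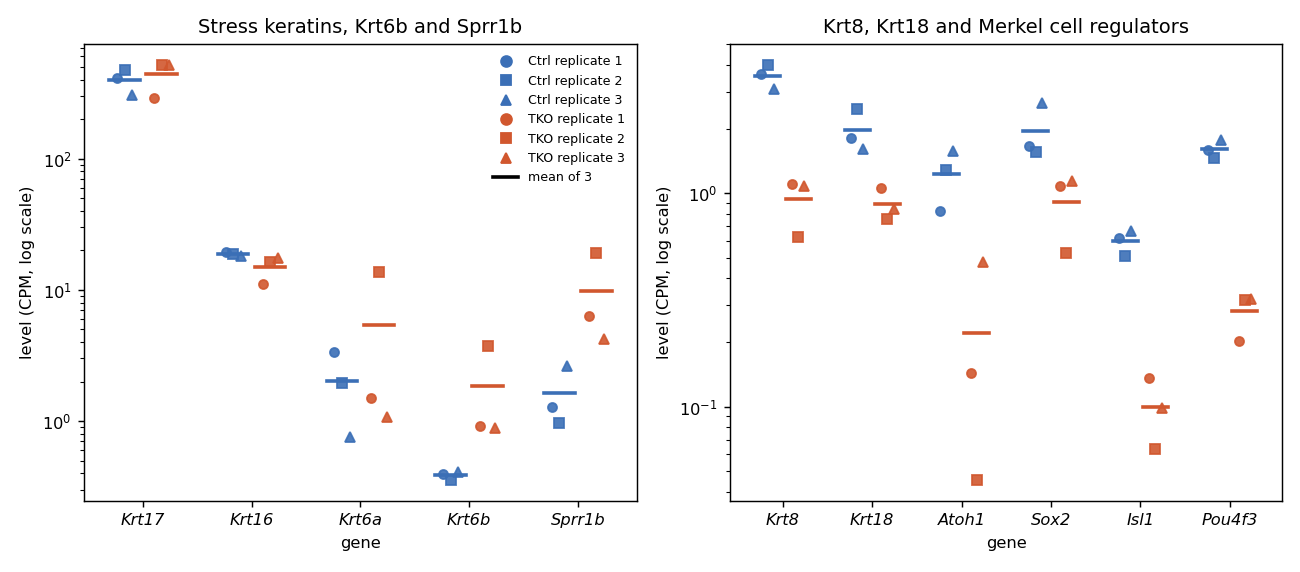
Levels in CPM (vertical axes, log scale) of the stress keratins with Krt6b and Sprr1b (left) and of Krt8 and Krt18 with 4 Merkel cell regulators (right), in Ctrl (blue) and TKO (orange) samples with bars at the mean of 3. On the left TKO replicate 2 is highest for Krt6a, Krt6b and Sprr1b, and on the right every TKO sample lies below every Ctrl sample of the same gene.

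Genes that act with keratins were read from lists chosen by function, beside the 2.02% of all tested genes that were lower and the 4.06% that were higher at an unadjusted p under 0.05 in edgeR. Among 19 tested linkers and partners of keratin filaments, a list that holds desmosomal and hemidesmosomal proteins and also others such as Vim and Flg, the desmosomal plakophilin Pkp3 was lower (log2 fold change -0.30) and Dsc2 higher (0.53) at an unadjusted p in edgeR, with adjusted p-values of 0.786 and 0.814. The most abundant linker, Dsp, encoding desmoplakin, was at 3485, 4199 and 3437 CPM in Ctrl and 4478, 4278 and 3136 CPM in TKO. None of the 12 tested basal layer genes other than keratins had an unadjusted p under 0.05. The Ctrl and TKO samples did not overlap for 2 of the 12, Itgb4 and Itga3, both higher in TKO, as for 6.35% of all tested genes. Col17a1, a hemidesmosomal collagen, differed by -0.04 and Trp63, the p63 regulator of basal identity, by 0.08 on the log2 scale. The basal keratins had a median log2 fold change of -0.44 and these other basal genes 0.07.

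Of 21 tested suprabasal genes other than keratins, 1 (higher) had an unadjusted p under 0.05 in edgeR, where 4.06% of all tested genes were higher at that p. This was Sprr1b, a cornified envelope precursor also induced by stress, at 1.28, 0.975 and 2.63 CPM in Ctrl and 6.35, 18.9 and 4.20 CPM in TKO (log2 fold change 2.59 ± 0.584, SE, adjusted p = 0.214, DESeq2 adjusted p = 5.62e-05). Its highest sample was TKO replicate 2, as for Krt6a and Krt6b. Krtdap, a protein of differentiating keratinocytes, differed by -0.03 and the desmoglein Dsg1a by -0.35 on the log2 scale. The median log2 fold change of the suprabasal keratins was -0.46 and that of these 21 genes 0.04. Among 15 tested stress genes other than keratins, Sprr1b and the interferon-inducible Ifitm3 (0.66, adjusted p = 0.342) were higher at an unadjusted p, while Gjb2 and Tnc, the most abundant, differed by 0.19 and 0.03. Of 22 tested regulators of keratin genes, Nfe2l2, encoding the oxidative stress factor NRF2, was higher at an unadjusted p (0.36, adjusted p = 0.786), and Notch1, the most abundant, differed by 0.24.

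Markers of other cells were present at various levels. Fibroblast markers summed to 1720, 4348 and 3589 CPM in Ctrl and 2845, 2952 and 3272 CPM in TKO, led by Col1a1, and none of the 10 had an unadjusted p under 0.05. Immune markers summed to 24.2, 48.1 and 14.6 CPM in Ctrl and 7.49, 80.5 and 21.1 CPM in TKO, so that TKO replicate 2, the sample with high Krt6a and Krt6b, also had the highest immune sum. No immune marker was at 0 in all samples, their most abundant gene was Csf1r, and their part in the Krt6a level was not tested. Skeletal muscle markers summed to 6.44, 13.1 and 8.99 CPM in Ctrl and 34.7, 34.9 and 36.6 CPM in TKO. Of the 10, all tested, 9 had a positive log2 fold change and 4 an unadjusted p under 0.05 (Ttn, Myh3, Myh8 and Acta1), where 4.06% of all tested genes were higher at that p. edgeR called 1 of them, Myh3 (log2 fold change 2.61, adjusted p = 0.0211), and DESeq2 called all 4, where edgeR called 0.131% and DESeq2 1.04% of all tested genes in either direction. Ttn was their most abundant gene, no marker was at 0 in all samples, and their part in the keratin levels was not tested. Of the markers tested for hair follicle placodes (10), melanocytes (8), endothelium (6) and erythroid cells (8), 1 had an unadjusted p under 0.05 in each of the first 3 lists, in every case higher (Dkk4, Mlana and Cdh5, beside the same 4.06% of all tested genes), and none did in the last. DESeq2 called 1 of the 8 melanocyte markers, as higher, where it called 1.04% of all genes in either direction. It called none in the placode, endothelial and erythroid lists.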

How the data were processed

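Per the submitters' processing notes and the study's methods, reads were trimmed with fastp and aligned with STAR. The notes name the GRCm38 build and the methods GRCm39. The counting tool, annotation and strand setting are not given in the sources used here. The authors deposited raw counts per Ensembl gene, which were used as deposited. Of 55536 identifiers, 51477 matched GENCODE vM39, which supplied symbols and, from the Ensembl canonical transcript, lengths. These held 86.4% to 94.1% of each library's counts, and the 3 largest unmatched identifiers held 5.65% to 13.2%.

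Genes were filtered with filterByExpr (minimum count 10, total 15), scaled by TMM (factors 0.947 to 1.03) and tested with edgeR 4.0.16 (glmQLFit, robust, and glmQLFTest) in R 4.3.3 on all 6 libraries without covariates, and p-values were adjusted by the Benjamini-Hochberg method over all 20622 tested genes. edgeR called 27 of them. The call needed an adjusted p under 0.05 with a log2 fold change over 1 in size. SE is the absolute log2 fold change over the square root of F. A count of 3, taken as the floor, equals 0.0232 to 0.0303 CPM. DESeq2 1.42.0 was an alternative. In data simulated for TKO against Ctrl with 19860 genes tested, edgeR recovered 160 of 200 changed genes with 6 false calls, and DESeq2 179 with 33. The changes set in the simulation were all above that fold threshold and in genes over 1 CPM. Recovery of smaller differences, such as those of most of the keratins, was not simulated. Ratios were tested by exact permutation in scipy 1.17.1.

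The members and lists were chosen with earlier results of these data known. Named genes were the 10 keratins, other keratin genes with an unadjusted p under 0.05 together with Krt8, Krt18, Krt19 and Krt13, list members with an unadjusted p under 0.05 or among the most abundant of their list, the gate and targeted genes, and the 5 genes most correlated with Krt14, Krt10 and Krt6a. Eppk1 and Lor, by those symbols, were not matched. Alternatives were RLE scaling, other count filters, a replicate block, a sex term from the letter in the library name, no robust estimation, other thresholds and leaving out each library.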

Additional observations from a re-analysis of the deposited data

How the results depend on the processing

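The number of keratins called, 0 of 10, became 1 (Krt15) with DESeq2, with no low-count filter and without TKO replicate 3, and ranged from 0 to 1 when each library was left out. The number of all genes called, 27, was 214 with DESeq2, 235 with no low-count filter, 9 with at least 10 counts in every library, 11 at an adjusted p under 0.01 and 7 to 81 when each library was left out (8, 7 and 8 without Ctrl replicates 1, 2 and 3, 15 without TKO replicate 2 and 81 without TKO replicate 3). The cause was not tested. The log2 fold change of Krt15 passed the call with DESeq2 (-1.18), with no low-count filter (-1.21) and without TKO replicate 3 (-1.54). Signs changed without TKO replicate 2 for Krt6a (-0.66), Krt77/Krt10 (-0.16), Krt6a/Krt17 (-0.42) and Krt6a/Krt5 (-0.0023), without Ctrl replicate 3 for Krt17 (-0.0047), Krt10/Krt14 (0.11), Krt1/Krt5 (0.09) and Krt16/Krt14 (0.07), without TKO replicate 3 for Krt1/Krt5 (0.05) and without TKO replicate 1 for Krt16/Krt14 (0.05). Over the 6 fits that each lack 1 library, the differences that changed sign ranged, on the log2 scale, from -0.66 to 1.99 for Krt6a, -0.0047 to 0.38 for Krt17, -0.16 to 1.28 for Krt77/Krt10, -0.42 to 1.42 for Krt6a/Krt17, -0.31 to 0.11 for Krt10/Krt14, -0.36 to 0.0929 for Krt1/Krt5, -0.0023 to 1.92 for Krt6a/Krt5 and -0.16 to 0.0674 for Krt16/Krt14. None of the other epidermal keratins among the 10, and none of the other pairs, changed sign or side of the threshold under the alternatives run.

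Same-numbered samples deviated together with correlations of 0.168, 0.0873 and 0.127, each sample correlating best with its own number, but not all above 0.1, and no label says that a number marks a litter. With the number as a replicate block 45 genes and 0 of the 10 keratins were called. The block moved the log2 fold change of Krt77 from 0.34 to 0.0081 and that of Krt6a from 1.42 to 0.70. With no low-count filter the median log2 fold change of all genes moved to -0.11. Depth limits Krt2 and Krt6a most, with 41 and 81 counts in their lowest libraries.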
